A study of Mus musculus with 6 samples.

Results

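Chemokines and their receptors were followed in RNA from mouse mammary tumours and mammary glands. The members were the 62 genes of the deposited table, out of 24421, whose symbol begins with Ccl, Ccr, Cxcl, Cxcr, Cx3cl, Cx3cr, Xcl, Xcr or Ackr and goes on with a number. They comprised 39 chemokines, 19 signalling receptors and 4 atypical receptors. The study held 6 libraries of total RNA from 5-month-old female FVB/NJ mice, 3 of mammary gland and 3 of mammary tumour. The tumours came from mice labelled FVB/NJ; MMTV-Tg(LINK-A), in which the mouse mammary tumour virus promoter, active in mammary epithelium, drives a transgene for the long non-coding RNA LINK-A. The glands came from mice of the same age labelled FVB/NJ; Tg(LINK-A), so both groups carry the transgene by their labels and the glands are not from wild-type animals. The donor label changes with the tissue, and an effect of genotype cannot be told apart from one of tissue. Whether each library of a group stands for its own animal is not in the labels, and the p-values speak only of the spread among these 6 libraries.

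Chemokines are small secreted proteins that steer cells by binding G protein-coupled receptors, and they are classed as CC, CXC, CX3C or XC by the spacing of their first cysteines. Some are made constantly by stroma, epithelium and lymph node, and others are switched on by NF-kappaB or by interferon. Atypical receptors bind chemokines without coupling to G proteins and remove or carry them. In mammary tissue the ligands come from epithelium, fat, stroma and leukocytes alike, and the receptors mostly from leukocytes.

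Values were read as FPKM, although the header names no unit: sequenced fragments scaled to transcript length and to the library total, so levels can be compared between genes. All fold changes given as log2 were taken on log2(FPKM + 1), which understates the change of low genes. Testing covered genes that averaged 1 FPKM or more and used limma, with Benjamini-Hochberg adjustment over all 13364 of them and a threshold of 0.05. Of the 62 members 46 were tested, and 31 of these had a mean of at least 1 FPKM in both groups. A tested member below that level in 1 group entered through the other. Ccl1, Ccl26 and Ccl27b were listed at 0 in every library. A value of 0 can be a failed estimate: Dynlt1c was listed at 0 in gland 2 and at 28.7 FPKM or more elsewhere.

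The libraries differed within their groups. The FPKM summed to between 486080 and 582996 per library, no source used here gives read totals, and the absolute depth is thus unknown. Low values lie in steps, and by these the relative depth of glands 1 and 2 and of tumours 2 and 3 came to 1.43 to 1.58 times that of tumour 1. For gland 3 the same estimate, 0.633, rested on 18 gene pairs, the fewest, and was not taken as settled. Gland 2 and tumour 3 stood apart in leukocyte RNA. The summed level of 6 leukocyte markers was 614, 291 and 624 FPKM in glands 1 to 3 and 344, 287 and 105 FPKM in tumours 1 to 3. The 8 B cell markers summed to 144, 22.5 and 150.0 FPKM in the glands and 43.7, 35.5 and 1.13 FPKM in the tumours, none of them at 0 in every library. Ptprc, the pan-leukocyte antigen CD45, was at 34.3, 15.5 and 27.5 FPKM in glands 1 to 3, against 7.27, 9.59 and 4.52 FPKM in tumours 1 to 3. The tumours also held less stroma and fat RNA: the 8 fibroblast markers summed to 2006 to 2164 FPKM in the glands and 126 to 436 FPKM in the tumours, and the 8 adipocyte markers to 6831 to 8165 and 48.01 to 254 FPKM. The 8 luminal epithelium markers went the other way, with sums of 1090 to 1155 FPKM in the glands and 3025 to 3159 FPKM in the tumours, and all 8 passed as higher. The 8 basal epithelium markers did not rise with them: 4 were lower and 4 did not pass. Their sums were 580 to 625 FPKM in the glands and 115 to 322 FPKM in the tumours. In whole tissue, fewer cells of a type and less RNA per cell cannot be told apart.

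In the tumours 3 tested members were higher, 18 were lower and 25 did not pass. The 3 that rose were Cxcl1, Ccl28 and Cxcl17, all of them ligands. This was 6.52% of the tested members higher and 39.1% lower, where 21.9% of all tested genes were higher and 23.1% lower. In either direction 21 of 46 members passed, beside 45.1% of all tested genes. The 3 tumours lay above the 3 glands for 3 members and below them for 20, or 6.52% and 43.5%, beside 29.3% and 29.0% of all tested genes. The median log2 fold change was -1.105 over the tested members and 0.008 over all tested genes. By class, 3 of 31 tested chemokines rose and 10 fell, 0 of 11 signalling receptors rose and 4 fell, and all 4 atypical receptors fell. In limma 0 of those 11 receptors were higher at an unadjusted p under 0.05. Tumour 3 was the lowest tumour for 32 tested members, 69.6%, beside 39.4% of all tested genes, and gland 2 was the lowest gland for 30, or 65.2%, beside 55.2%.

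The counts were also taken without the libraries that stood apart or differed from them. Without tumour 3, 7 members were higher and 18 lower, and Ccl2, Ccl7, Cxcl11 and Cxcl16 joined the 3 that rose. Without glands 1 and 3, only gland 2 is left in its group, the spread comes from the tumours alone and gland 2 is assumed to vary like them. There the same 3 were higher and 6 were lower, namely Ackr1, Ackr3, Ccl21b, Ccl24, Cxcl15 and Cxcr3. The 12 calls lost there had log2 fold changes of -3.41 to -0.53 and adjusted p of 0.0535 to 0.357. Calls over all genes became fewer as well, so a call lost with 1 gland says little of a member. Its log2 fold change there, or for Cxcr6 the range over the settings run, is given below. With quantile normalization, which moved the median of all genes from 0.008 to 0.119, the 3 rises and 16 of the falls were kept.

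**Figure D1:**
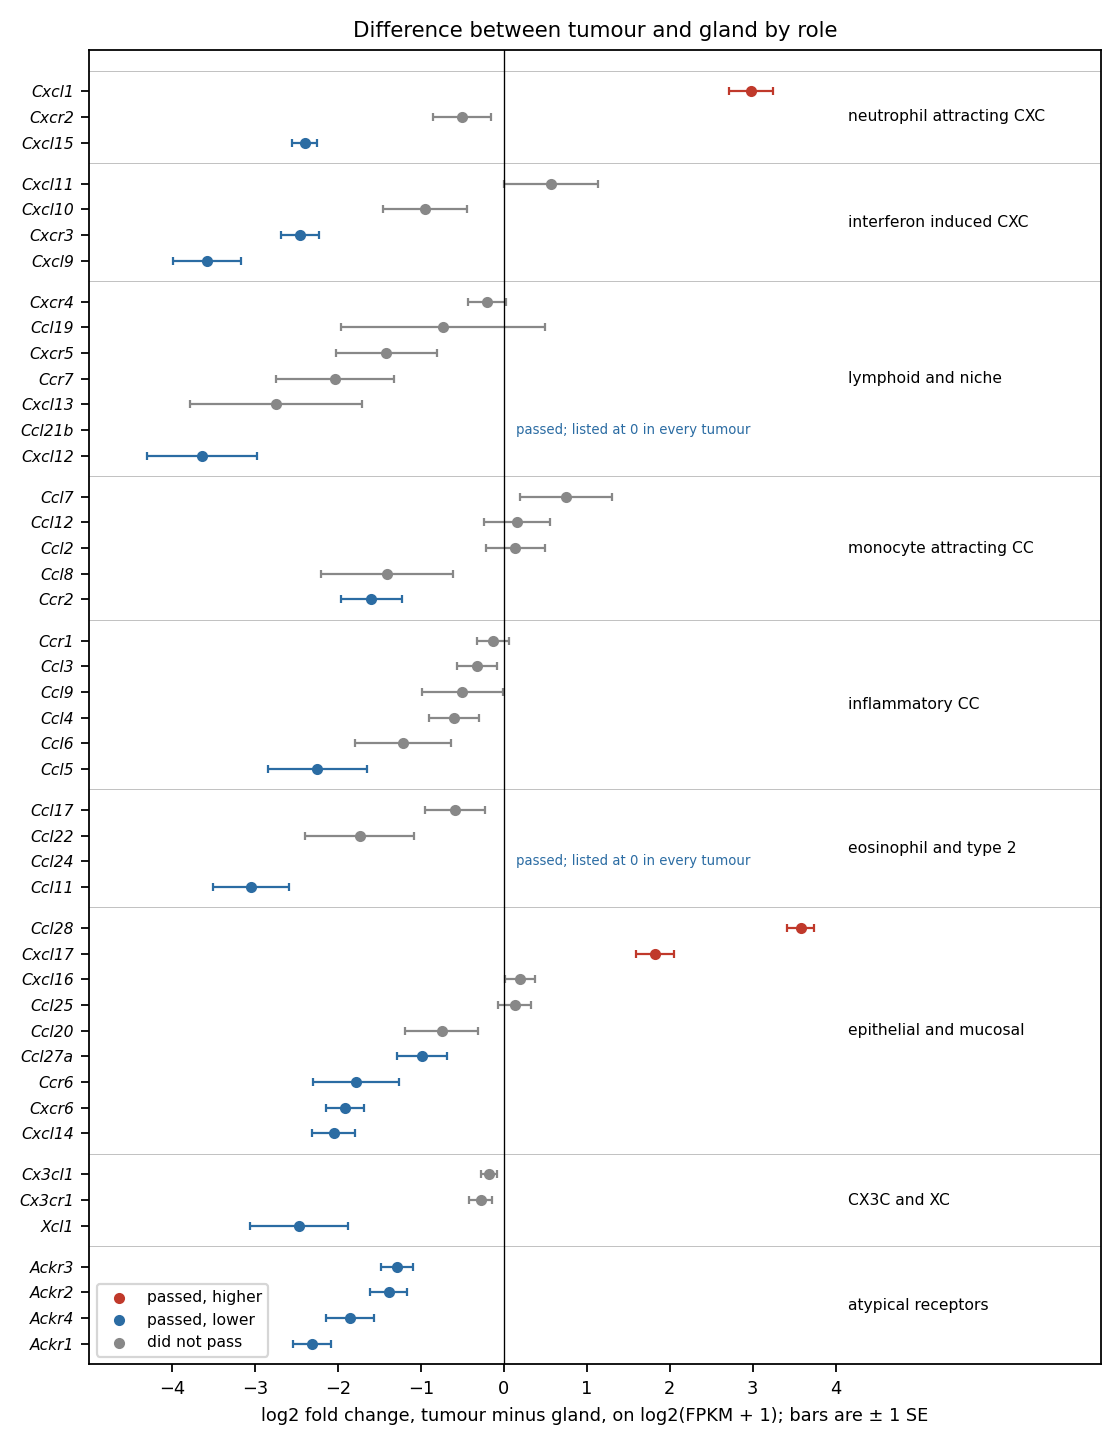
Log2 fold change of tested members, tumour minus gland on log2(FPKM + 1), grouped by role, with bars of 1 SE. Red points passed as higher, blue points passed as lower and grey points did not pass. Ccl28 at 3.58 and Cxcl12 at -3.64 are the outermost points, and no fold is drawn for Ccl21b and Ccl24, which were listed at 0 in every tumour.

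Cxcl1, a ligand of the neutrophil receptor Cxcr2, rose in the tumours, and its relative Cxcl15 fell. Cxcl1 measured 1.28, 1.35 and 1.65 FPKM in glands 1 to 3, against 25.6, 20.01 and 11.5 FPKM in tumours 1 to 3. All 3 tumours lay far above the glands, by a factor of 13.3 in the means (log2 fold change 2.98, SE 0.27, adjusted p = 0.000278). Cxcl15, the chemokine also called lungkine, stood at 5.19, 6.31 and 6.22 FPKM in glands 1 to 3, against 0.278, 0.352 and 0.295 FPKM in tumours 1 to 3. It was lower in every tumour, 19.1-fold in the means (log2 fold change -2.40, SE 0.15, adjusted p = 7.74e-05). The other neutrophil-attracting ligands Cxcl2, Cxcl3 and Cxcl5 were listed at 0 in all 3 glands and were too low to test. They reached 1.28, 1.84 and 0 FPKM for Cxcl2, 0, 0.438 and 0.308 FPKM for Cxcl3 and 1.21, 2.103 and 0 FPKM for Cxcl5 in tumours 1 to 3. Each was thus above 0 in 2 of the 3 tumours. Without a filter they did not pass (adjusted p = 0.108, 0.13 and 0.114 in limma).

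The receptors for these ligands were low in both groups. Cxcr2 was at 2.08, 0.397 and 2.04 FPKM in glands 1 to 3, against 0.949, 0.736 and 0.359 FPKM in tumours 1 to 3, with tumours 1 and 2 inside the range of the glands and tumour 3 just below it (log2 fold change -0.50, SE 0.35, adjusted p = 0.282). It was lower without gland 2 (-0.88, adjusted p = 0.0236, with 0.0236 to 0.747 over the settings run), and its direction turned under quantile normalization (0.14) and without glands 1 and 3 (0.25). Cxcr1 was listed at 0 in every library except gland 3, at 0.0511 FPKM. Beside these values, 7 neutrophil markers summed to 42.7 to 63.3 FPKM in the glands and 270.0 to 3164 FPKM in the tumours. Nearly all of the tumour sum was S100a8, a calprotectin subunit that epithelium also makes, at 3100, 1833 and 259 FPKM. Of those 7, which include Cxcr2, 1 was higher, 2 lower and 4 did not pass. The neutrophil growth factor receptor Csf3r measured 2.74, 2.38 and 2.38 FPKM in glands 1 to 3, against 1.31, 2.35 and 0.834 FPKM in tumours 1 to 3 and did not pass (log2 fold change -0.53, SE 0.24, adjusted p = 0.117). Their part in the level of Cxcl1 was not tested.

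Cxcl1 is a textbook NF-kappaB target, and the bases ahead of 4 chemokine genes are printed because these genes moved apart: Cxcl1 and Ccl28 rose, Cxcl9 fell and Cxcl10 did not pass. Sequences are from RefSeq promoters on GRCm38.p6, the build also called mm10, and hold the C57BL/6J reference rather than FVB/NJ. Each line gives the bases from 220 to 11 before the annotated start, 5′ to 3′ on the gene's strand. They lie at chr5:90891025-90891234, plus strand (Cxcl1), chr13:119623599-119623808, plus strand (Ccl28), chr5:92328090-92328299, minus strand (Cxcl9) and chr5:92348900-92349109, minus strand (Cxcl10), all outside annotated exons. Capitals mark exact matches to the NF-kappaB site or to the interferon-stimulated response element. The NF-kappaB site was searched as GGGRNWYYCC, where R is A or G, W is A or T, Y is C or T and N is any base.
Cxcl1: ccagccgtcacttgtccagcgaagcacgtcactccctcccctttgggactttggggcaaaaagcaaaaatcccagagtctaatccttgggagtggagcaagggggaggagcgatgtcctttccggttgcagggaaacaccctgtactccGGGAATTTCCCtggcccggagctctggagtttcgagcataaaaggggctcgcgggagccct
Ccl28: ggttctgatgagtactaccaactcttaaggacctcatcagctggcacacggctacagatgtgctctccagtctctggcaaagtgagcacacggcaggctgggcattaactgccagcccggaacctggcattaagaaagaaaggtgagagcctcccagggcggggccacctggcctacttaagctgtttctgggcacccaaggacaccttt
Cxcl9: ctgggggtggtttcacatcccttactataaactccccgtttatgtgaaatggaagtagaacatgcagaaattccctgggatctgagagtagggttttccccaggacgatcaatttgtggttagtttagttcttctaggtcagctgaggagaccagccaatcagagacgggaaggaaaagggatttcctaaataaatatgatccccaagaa
Cxcl10: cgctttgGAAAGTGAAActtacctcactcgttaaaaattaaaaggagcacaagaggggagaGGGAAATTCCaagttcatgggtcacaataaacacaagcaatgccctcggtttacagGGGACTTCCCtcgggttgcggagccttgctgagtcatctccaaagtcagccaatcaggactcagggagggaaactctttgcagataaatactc
The Cxcl1 capitals begin 71 bases before the start and match the NF-kappaB site on both strands, overlapping by all but 1 base. Cxcl10 holds NF-kappaB matches that begin 159 and 103 bases before its start and a match to the interferon-stimulated response element (GAAA, any 2 bases, GAAA) that begins at 213. Neither motif, nor the gamma-activated site TTCNNNGAA, matched exactly in the windows of Ccl28 and Cxcl9. A stretch that departs from a pattern by 1 base was not counted, so the lack of a match does not show that these genes lack such sites. Over the 250 bases before the start, both strands searched, an NF-kappaB match was found for 9 of the 46 members with an entry, or 19.6%, and for 4.46% of all 27025 genes with one. The 9 were Ackr2, Ccl20, Ccl9, Ccr3, Ccr6, Cxcl1, Cxcl10, Cxcl2 and Cxcl3, and Ackr2 and Ccr6 fell. The interferon-stimulated response element matched for 3 members, 6.52% beside 3.46% of all genes, and the gamma-activated site for 4, 8.70% beside 8.13%.

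The interferon-induced ligands that share the receptor Cxcr3 did not move together. Cxcl9, which draws T cells and is induced mainly by interferon gamma, stood at 57.3, 31.4 and 70.7 FPKM in glands 1 to 3, against 5.75, 3.38 and 1.66 FPKM in tumours 1 to 3. Every tumour was below every gland, 14.8-fold in the means (log2 fold change -3.58, SE 0.41, adjusted p = 0.000619). Without glands 1 and 3 its log2 fold change was -2.92 and the call was lost (adjusted p = 0.0537, with 0.000321 to 0.0537 over the settings run). Cxcl10, induced by all interferon types, was at 8.13, 5.16 and 17.2 FPKM in glands 1 to 3, against 6.83, 5.53 and 1.77 FPKM in tumours 1 to 3 and did not pass (log2 fold change -0.95, SE 0.51, adjusted p = 0.168). Tumours 1 and 2 lay among the glands and only tumour 3 below them. Cxcl11 measured 1.12, 0.494 and 1.82 FPKM in glands 1 to 3, against 5.14, 2.74 and 0.288 FPKM in tumours 1 to 3 (log2 fold change 0.57, SE 0.57, adjusted p = 0.443). Tumours 1 and 2 were above all 3 glands and tumour 3 was below them, and without tumour 3 Cxcl11 passed as higher (1.21, adjusted p = 0.028, with 0.028 to 0.915 over the settings run).

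Cxcr3 itself, carried by activated T and NK cells, fell 13.6-fold. It stood at 10.2, 5.85 and 7.13 FPKM in glands 1 to 3, against 0.583, 0.833 and 0.291 FPKM in tumours 1 to 3 (log2 fold change -2.46, SE 0.23, adjusted p = 0.000315), and its call was kept in all 14 alternatives that tested it. In the same libraries the 11 measured T and NK cell markers summed to 195, 69.7 and 197 FPKM in the glands and 36.8, 35.7 and 5.99 FPKM in the tumours. Of the 10 tested, 8 were lower and 2 did not pass, and none was at 0 in every library. Their part in the level of Cxcr3 and of Cxcl9 was not tested.

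The epithelial and mucosal ligands split, with Ccl28 and Cxcl17 up and Cxcl14 and Ccl27a down. Ccl28, a mucosal ligand of Ccr10 that mammary epithelium makes in lactation and that draws antibody-secreting cells, was at 0.572, 0.258 and 0.251 FPKM in glands 1 to 3, against 13.8, 15.1 and 16.5 FPKM in tumours 1 to 3. It rose 42.1-fold in the means (log2 fold change 3.58, SE 0.16, adjusted p = 2.13e-05), and the 3 tumours lay close together. Tumour 3, the lowest tumour for most members, was the highest library for Ccl28. Cxcl17, a mucosal chemokine, measured 0.861, 0.214 and 0.504 FPKM in glands 1 to 3, against 3.38, 4.31 and 5.45 FPKM in tumours 1 to 3, a rise of 8.32-fold (log2 fold change 1.82, SE 0.23, adjusted p = 0.00103). Both kept their call in every alternative that tested them. An antisense transcript, 4732471J01Rik, overlaps Cxcl17, and without strand their reads cannot be told apart. It stood at 2.61, 1.76 and 3 FPKM in glands 1 to 3, against 0.185, 0.268 and 0.537 FPKM in tumours 1 to 3 and fell, opposite to Cxcl17.

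Cxcl14, a chemokine of skin and breast epithelium and of fibroblasts, was at 66.2, 61.1 and 62.4 FPKM in glands 1 to 3, against 20.6, 15.9 and 9.18 FPKM in tumours 1 to 3. It fell 4.16-fold (log2 fold change -2.05, SE 0.26, adjusted p = 0.000972), without overlap, and without glands 1 and 3 it was -2.004 and did not pass (adjusted p = 0.0739, with 0.000156 to 0.0739 over the settings run). Ccl27a, the skin ligand of Ccr10, measured 11.01, 10.5 and 12.5 FPKM in glands 1 to 3, against 9.26, 3.602 and 4.04 FPKM in tumours 1 to 3 (log2 fold change -0.99, SE 0.30, adjusted p = 0.0338). Tumour 1 lay near the glands, and the call was lost under quantile normalization and without any 1 library except tumour 1. In these settings the log2 fold change was -1.04 to -0.78 and the adjusted p 0.0556 to 0.105. Without glands 1 and 3 the log2 fold change of Ccl27a was -0.89 and its call was lost too. Il11ra1 overlaps Ccl27a on the other strand and fell as well (-0.86), and near copies of Ccl27a lie on the same chromosome. Cxcl16, a membrane-bound ligand of Cxcr6, stood at 25.7, 25.5 and 25.3 FPKM in glands 1 to 3, against 37.2, 30.2 and 22.2 FPKM in tumours 1 to 3 and did not pass (log2 fold change 0.19, SE 0.18, adjusted p = 0.427). It was above the glands in tumours 1 and 2, and passed without tumour 3 (0.38, adjusted p = 0.034, with 0.034 to 0.915 over the settings run). Ccl20, the ligand of Ccr6, was at 4.39, 3.12 and 4.26 FPKM in glands 1 to 3, against 2.93, 3.55 and 0.387 FPKM in tumours 1 to 3 (log2 fold change -0.75, SE 0.44, adjusted p = 0.208). Ccl25, the ligand of Ccr9, measured 2.598, 3.14 and 1.66 FPKM in glands 1 to 3, against 2.92, 2.42 and 2.89 FPKM in tumours 1 to 3 (log2 fold change 0.13, SE 0.20, adjusted p = 0.629). Neither passed, and the direction of Ccl25 turned without gland 3 (-0.049).

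The receptors of this group were lower or too low to test. Cxcr6, carried by tissue T and NKT cells, stood at 6.85, 5.49 and 6.64 FPKM in glands 1 to 3, against 0.8697, 1.603 and 0.491 FPKM in tumours 1 to 3. It fell (log2 fold change -1.92, SE 0.23, adjusted p = 0.000792), while its ligand Cxcl16 did not. Cxcr6 lost its call without glands 1 and 3, and its log2 fold change lay between -2.69 and -1.48 over the settings run. Ccr6, found on B cells and some T cells, was at 6.003, 0.726 and 4.74 FPKM in glands 1 to 3, against 0, 0.503 and 0.133 FPKM in tumours 1 to 3 (log2 fold change -1.78, SE 0.52, adjusted p = 0.0298). Gland 2 lay close to the tumours, and with it as the only gland the log2 fold change of Ccr6 was -0.53. Ccr6 lost its call there. Its log2 fold change was -2.41 without gland 2 (adjusted p = 0.00129, with 0.00129 to 0.263 over the settings run), and its call was lost without any other single library (adjusted p of 0.0567 to 0.101) and under quantile normalization (-1.25). Ccr10, the receptor for Ccl28, measured 0.937, 1.07 and 0.7901 FPKM in glands 1 to 3, against 0, 0.376 and 0.453 FPKM in tumours 1 to 3, and Ccr9 at 0.972, 0.128 and 0.811 FPKM in glands 1 to 3, against 0.1604, 0.102 and 0 FPKM in tumours 1 to 3, both under the level for testing. Without a filter Ccr10 was lower in the tumours (adjusted p = 0.0265 in limma), opposite to its ligand Ccl28.

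**Figure D2:**
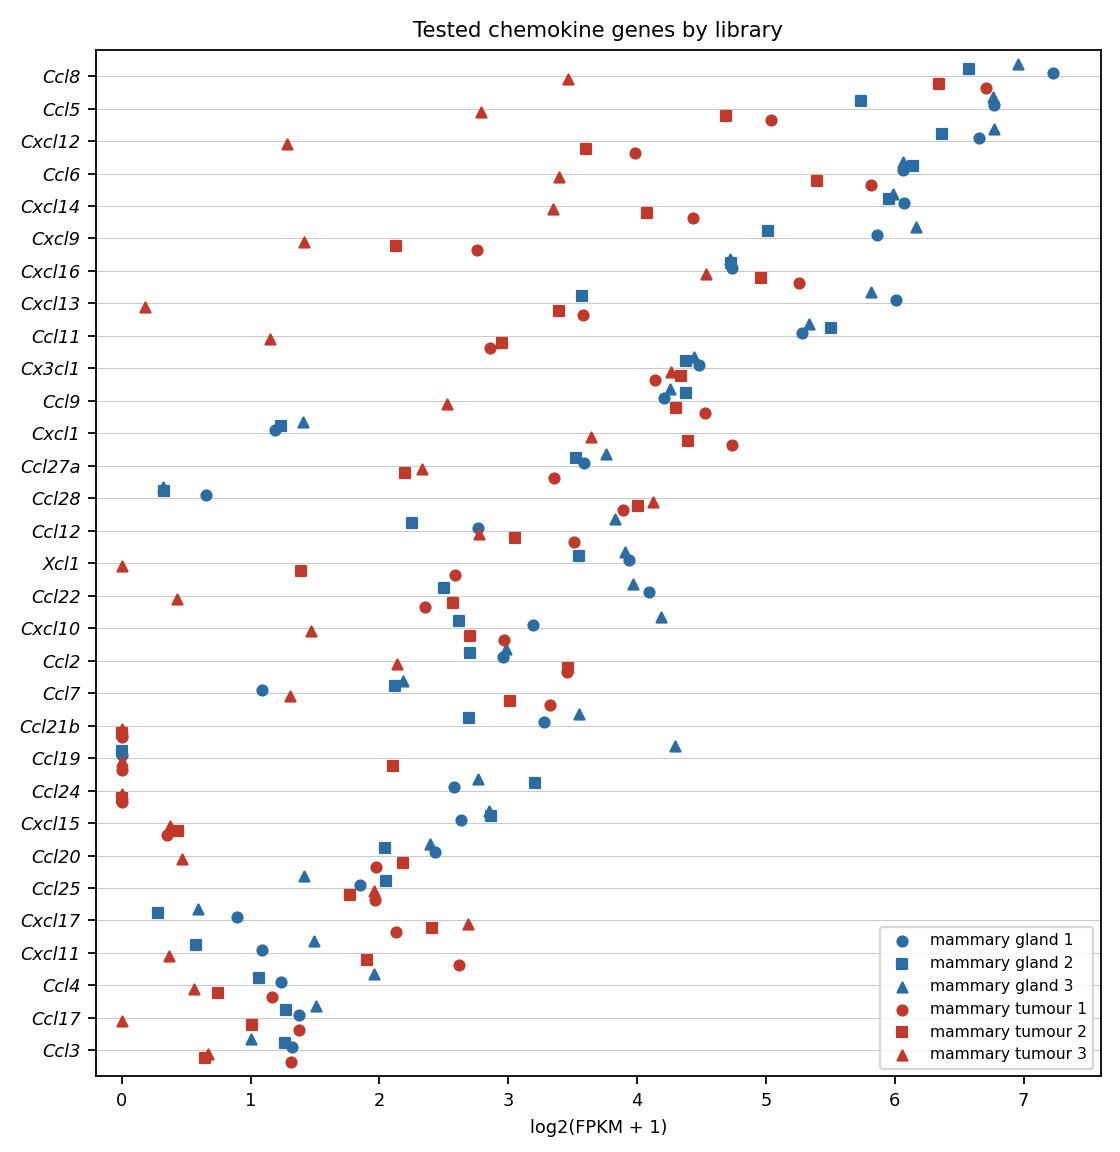
Level of each tested chemokine in each library as log2(FPKM + 1), ordered by its mean over the 6 libraries. Blue points are mammary gland and red points mammary tumour, with 1 marker shape per replicate number. For Cxcl1, Ccl28 and Cxcl17 every red point lies to the right of every blue point, and the red triangle of tumour 3 is leftmost in many rows.

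Ligands that organise lymphoid tissue and stem cell niches were lower or unresolved. Cxcl12, made by stromal cells to hold Cxcr4-bearing cells, stood at 99.5, 81.5 and 108 FPKM in glands 1 to 3, against 14.8, 11.2 and 1.43 FPKM in tumours 1 to 3. It fell 10.6-fold (log2 fold change -3.64, SE 0.66, adjusted p = 0.00433), all 3 tumours below all 3 glands. Without tumour 3 the log2 fold change was -2.80 and without glands 1 and 3 the call was lost (-3.41, adjusted p = 0.151, with 7.83e-05 to 0.151 over the settings run). Its receptor Cxcr4 was at 32.9, 26.2 and 36.4 FPKM in glands 1 to 3, against 21.8, 24.03 and 38.6 FPKM in tumours 1 to 3 and did not pass (log2 fold change -0.20, SE 0.23, adjusted p = 0.505). Tumour 3, the lowest library for Cxcl12, was the highest for Cxcr4. The direction of Cxcr4 turned without glands 1 and 3 (0.055). All 8 fibroblast markers fell, and the summed level in tumour 3 was the lowest of the 6. Their part in the fall of Cxcl12 was not tested.

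Cxcl13, the B cell follicle chemokine, varied widely within both groups. It measured 63.5, 10.9 and 55.3 FPKM in glands 1 to 3, against 10.98, 9.498 and 0.134 FPKM in tumours 1 to 3 and did not pass (log2 fold change -2.75, SE 1.04, adjusted p = 0.0683). Glands 1 and 3 were high, gland 2 lay level with tumours 1 and 2, and tumour 3 was near 0. Cxcl13 passed without gland 2 (-3.53, adjusted p = 0.0418, with 0.0418 to 0.649 over the settings run), and was at -3.35 without tumour 1 and -1.645 without tumour 3. Its receptor Cxcr5 was likewise high in glands 1 and 3 and lowest in tumour 3, at 7.7, 1.43 and 6.58 FPKM in glands 1 to 3, against 1.603, 2.22 and 0 FPKM in tumours 1 to 3 (log2 fold change -1.42, SE 0.61, adjusted p = 0.1), and it too passed without gland 2 (-1.999, adjusted p = 0.0267, with 0.0267 to 0.84 over the settings run). Ccr7, which brings T cells and dendritic cells into lymph nodes, stood at 15.4, 3.49 and 17.96 FPKM in glands 1 to 3, against 4.22, 2.33 and 0.159 FPKM in tumours 1 to 3 and narrowly missed the threshold (log2 fold change -2.04, SE 0.71, adjusted p = 0.0542). It passed without gland 2 (-2.69), without tumour 1 (-2.51) and with a common sum per library (-2.115), over a range of adjusted p of 0.0191 to 0.638, and was -1.42 without tumour 3.

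The Ccr7 ligands were split among near-identical gene copies on chromosome 4, so their division is uncertain. Ccl21b stood at 8.72, 5.47 and 10.7 FPKM in the 3 glands, while every tumour had it at 0 (adjusted p = 0.000128). Ccl21a was at 1.903, 0 and 1.06 FPKM in glands 1 to 3, against 0, 0.3303 and 0 FPKM in tumours 1 to 3 and Ccl21c at no more than 0.244 FPKM, both untested. Ccl19 measured 0, 0 and 18.7 FPKM in glands 1 to 3, against 0, 3.303 and 0 FPKM in tumours 1 to 3 (log2 fold change -0.73, SE 1.23, adjusted p = 0.655). It was high in gland 3 alone, listed at 0 in glands 1 and 2, and turned direction without gland 3 (0.70). The vascular addressin gene Madcam1, a lymph node and mucosal endothelial marker, stood at 17.2, 11.9 and 15 FPKM in glands 1 to 3, against 0.493, 0.212 and 0 FPKM in tumours 1 to 3. Of 8 lymph node stroma markers, which include Ccl19, Ccl21a and Cxcl13, 7 were tested: 2 were lower, 1 was higher and 4 did not pass. Their summed level was 1495 to 2156 FPKM in the glands and 1946 to 2177 FPKM in the tumours, mostly from Glycam1 and Clu, which mammary epithelium also expresses. The part of lymph node tissue in these values was not tested.

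Of the monocyte-attracting group only the receptor Ccr2 passed, and it fell. Ccr2, carried by inflammatory monocytes, was at 10.6, 7.99 and 9.59 FPKM in glands 1 to 3, against 3.33, 3.95 and 0.859 FPKM in tumours 1 to 3 and was lower in every tumour (log2 fold change -1.60, SE 0.37, adjusted p = 0.0117). With gland 2 as the only gland, Ccr2 was at -1.40 and did not pass (adjusted p = 0.236, with 0.00167 to 0.236 over the settings run). Ccl2, its main ligand, measured 6.77, 5.499 and 6.92 FPKM in glands 1 to 3, against 9.99, 10.02 and 3.4 FPKM in tumours 1 to 3 (log2 fold change 0.14, SE 0.36, adjusted p = 0.779). Tumours 1 and 2 were above the glands and tumour 3 below. Ccl2 passed as higher without tumour 3 (0.58, adjusted p = 0.0141, with 0.0141 to 0.941 over the settings run), and its direction turned without tumour 1 (-0.082) or tumour 2 (-0.083). Ccl7 was also highest in tumours 1 and 2, at 1.13, 3.35 and 3.54 FPKM in glands 1 to 3, against 9.01, 7.099 and 1.47 FPKM in tumours 1 to 3 (log2 fold change 0.75, SE 0.56, adjusted p = 0.316), and passed without tumour 3 (1.37, adjusted p = 0.0204, with 0.0204 to 0.781 over the settings run). Ccl12, another Ccr2 ligand of mice, stood at 5.81, 3.77 and 13.2 FPKM in glands 1 to 3, against 10.4, 7.32 and 5.83 FPKM in tumours 1 to 3 (log2 fold change 0.16, SE 0.40, adjusted p = 0.769). Its groups overlapped, and its direction turned without gland 2 (-0.19) or tumour 1 (-0.037).

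Ccl8, a macrophage product, had the highest mean level of all 62 members. It was at 149, 94.3 and 124 FPKM in glands 1 to 3, against 104, 80.4 and 10.1 FPKM in tumours 1 to 3 and did not pass (log2 fold change -1.41, SE 0.80, adjusted p = 0.19), with tumour 3 far below the other 5 libraries. Without tumour 3 the log2 fold change was -0.39, and without tumour 1 -2.01. The 11 measured macrophage and monocyte markers summed to 1771, 1553 and 1712 FPKM in the glands and 1191, 979.7 and 526 FPKM in the tumours, with 5 lower, 6 not passing and none at 0 in every library. The monocyte antigen Ly6c2 fell (log2 fold change -2.31, SE 0.45, adjusted p = 0.00602) and the macrophage lysosomal antigen Cd68 did not pass (log2 fold change -0.29, SE 0.16, adjusted p = 0.18). Their part in the level of Ccr2 was not tested.

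Among the inflammatory CC ligands and their receptors only Ccl5 passed. Ccl5, made by T and NK cells, measured 108, 52.3 and 107 FPKM in glands 1 to 3, against 31.98, 24.9 and 5.91 FPKM in tumours 1 to 3. It fell 4.27-fold (log2 fold change -2.25, SE 0.60, adjusted p = 0.0213), with no overlap. Its call was lost without gland 1 (0.064), gland 3 (0.0725) or both (adjusted p = 0.357, with 0.0105 to 0.357 over the settings run), and its log2 fold change was -1.55 without tumour 3 and -1.56 without both glands. Ccl6 stood at 65.9, 69.6 and 66.02 FPKM in glands 1 to 3, against 55.4, 41.2 and 9.54 FPKM in tumours 1 to 3 (log2 fold change -1.22, SE 0.58, adjusted p = 0.126). Every tumour was below every gland, and Ccl6 passed without tumour 3, where the difference was smaller (-0.48, adjusted p = 0.0294, with 0.0294 to 0.472 over the settings run). Ccl9, a macrophage product like Ccl6, was at 17.5, 19.8 and 18.1 FPKM in glands 1 to 3, against 22.1, 18.7 and 4.77 FPKM in tumours 1 to 3 (log2 fold change -0.50, SE 0.49, adjusted p = 0.446), with tumour 3 alone low and a turned direction without it (0.13). Ccl3 and Ccl4, macrophage inflammatory proteins, stayed between 0.471 and 2.88 FPKM in every library. Neither passed (-0.32 and -0.60, adjusted p = 0.325 and 0.14), and both turned direction under quantile normalization (0.34 and 0.037).

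Ccr1, a receptor of neutrophils and monocytes, measured 3.85, 5.36 and 6.15 FPKM in glands 1 to 3, against 5.25, 4.46 and 3.96 FPKM in tumours 1 to 3 (log2 fold change -0.13, SE 0.19, adjusted p = 0.608). Tumour 3, low for most members, lay inside the gland range for Ccr1. Ccr1 turned direction under quantile normalization (0.16). Ccr1l1, a Ccr1-like gene, did not exceed 0.168 FPKM.

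**Figure D3:**
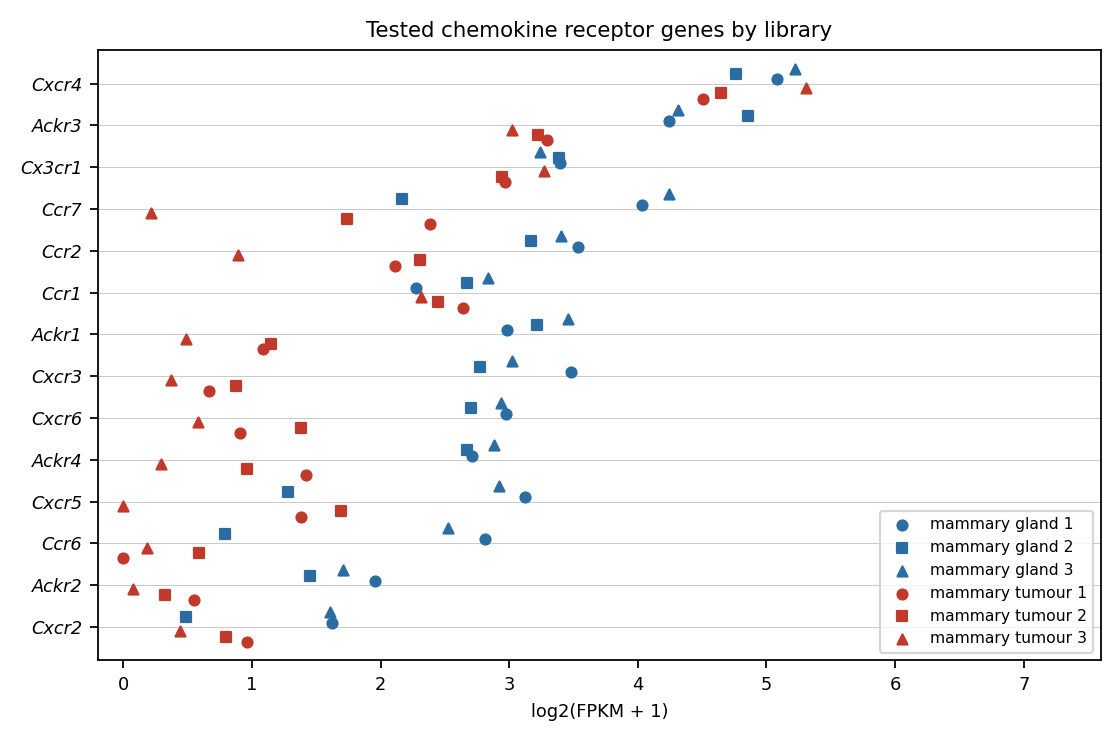
Level of tested signalling and atypical receptors in each library as log2(FPKM + 1), ordered by its mean. Blue points are mammary gland and red points mammary tumour, with 1 marker shape per replicate number. All blue points lie to the right of all red points for Ackr1 to Ackr4, Cxcr3, Cxcr6, Ccr2 and Ccr6, and the colours mix for Cxcr4, Cx3cr1 and Ccr1.

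The eotaxins Ccl11 and Ccl24 fell. Ccl11, the eotaxin of stroma and fat that recruits eosinophils through Ccr3, was at 37.9, 44.4 and 39.4 FPKM in glands 1 to 3, against 6.25, 6.73 and 1.22 FPKM in tumours 1 to 3. It was 8.57-fold lower (log2 fold change -3.05, SE 0.46, adjusted p = 0.00201), all tumours below all glands, and without glands 1 and 3 it was -3.18 and did not pass (adjusted p = 0.092, with 2.82e-05 to 0.092 over the settings run). Ccl24, eotaxin 2, stood at 4.96, 8.22 and 5.79 FPKM in the 3 glands and at 0 in each tumour (adjusted p = 0.000112). Their receptor Ccr3 was listed at 0 in every tumour and stood at 0.1497, 0.197 and 0.3601 FPKM in the glands, too low to test. The eosinophil granule genes Prg2 and Epx were at 0 in all 6 libraries. The 9 measured mast cell and eosinophil markers summed to 146 to 182 FPKM in the glands and 28.1 to 30.8 FPKM in the tumours. Of the 5 tested 4 were lower, all of them mast cell genes: Cpa3, Mcpt4, Cma1 and Tpsb2. Most of the tumour sum was Kit, at 20.04, 22.1 and 30.04 FPKM in tumours 1 to 3, which did not pass (log2 fold change -0.26). Siglecf, Prg2 and Epx were too low to test, so these markers show no change of eosinophils. The part of mast cells and eosinophils in the values was not tested.

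Ligands of Ccr4, the receptor of type 2 and regulatory T cells, were measured at modest levels. Ccl22, made by dendritic cells, measured 16.03, 4.65 and 14.7 FPKM in glands 1 to 3, against 4.103, 4.94 and 0.346 FPKM in tumours 1 to 3 and did not pass (log2 fold change -1.74, SE 0.66, adjusted p = 0.0698). Gland 2 lay with tumours 1 and 2. Ccl22 passed without gland 2 (-2.25, adjusted p = 0.0396, with 0.0396 to 0.659 over the settings run) and was -1.06 without tumour 3. Ccl17 stood at 1.601, 1.42 and 1.84 FPKM in glands 1 to 3, against 1.599, 1.01 and 0 FPKM in tumours 1 to 3 (log2 fold change -0.59, SE 0.36, adjusted p = 0.217). Ccr4, at 0.912, 0.489 and 1.01 FPKM in glands 1 to 3, against 0.338, 0.188 and 0 FPKM in tumours 1 to 3, and Ccr8, at 0.491, 0.328 and 0.791 FPKM in glands 1 to 3, against 0.408, 0 and 0 FPKM in tumours 1 to 3, were too low to test. Without a filter Ccr4 and Ccr3 were lower (adjusted p = 0.0257 and 0.0256 in limma) and Ccr8 did not pass (0.0977).

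Cx3cl1 and its receptor did not pass, and Xcl1 fell. Cx3cl1, the membrane-anchored fractalkine of epithelium and endothelium, was at 21.3, 19.8 and 20.8 FPKM in glands 1 to 3, against 16.6, 19.3 and 18.2 FPKM in tumours 1 to 3. The tumours lay just below the glands, and the difference did not pass (log2 fold change -0.18, SE 0.10, adjusted p = 0.18). Cx3cr1, on monocytes and macrophages, measured 9.51, 9.47 and 8.44 FPKM in glands 1 to 3, against 6.81, 6.69 and 8.66 FPKM in tumours 1 to 3 (log2 fold change -0.28, SE 0.14, adjusted p = 0.134) and was lower without tumour 3 (-0.39, adjusted p = 0.0339, with 0.0339 to 0.403 over the settings run). Xcl1, lymphotactin, made by NK and CD8 T cells, stood at 14.3, 10.7 and 14.02 FPKM in glands 1 to 3, against 4.997, 1.62 and 0 FPKM in tumours 1 to 3. It was lower in every tumour, 5.89-fold (log2 fold change -2.47, SE 0.59, adjusted p = 0.0137). Its value was -3.10 without tumour 1 and -1.81 without tumour 3, and its call was lost with a pseudocount of 0.1 (0.0542) and without glands 1 and 3 (-2.22, adjusted p = 0.248, with 0.00312 to 0.248 over the settings run). Xcr1, its receptor on cross-presenting dendritic cells, was at 1.96, 1.12 and 1.77 FPKM in glands 1 to 3, against 0.106, 0.164 and 0 FPKM in tumours 1 to 3, under the level for testing, with the groups apart and an adjusted p of 0.00148 in limma without a filter. Of 5 tested dendritic cell markers 4 were lower, and the 8 measured, Xcr1 among them, summed to 58.8 to 84.3 FPKM in the glands and 13.2 to 28.4 FPKM in the tumours. The part of these cells in the level of Xcl1 and Xcr1 was not tested.

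All 4 atypical receptors fell. Ackr1, the Duffy antigen receptor of venular endothelium, which carries inflammatory chemokines across vessels, measured 6.89, 8.28 and 9.96 FPKM in glands 1 to 3, against 1.12, 1.21 and 0.399 FPKM in tumours 1 to 3. It was 9.21-fold lower (log2 fold change -2.31, SE 0.23, adjusted p = 0.000367). Ackr2, a scavenger of inflammatory CC chemokines on lymphatic endothelium, stood at 2.87, 1.74 and 2.26 FPKM in glands 1 to 3, against 0.466, 0.248 and 0.0523 FPKM in tumours 1 to 3 (log2 fold change -1.39, SE 0.22, adjusted p = 0.00267). Ackr3, which takes up Cxcl12, was at 17.9, 28.03 and 18.9 FPKM in glands 1 to 3, against 8.79, 8.33 and 7.12 FPKM in tumours 1 to 3. It kept a mean of 8.08 ± 0.862 FPKM (SD, n = 3) in the tumours (log2 fold change -1.29, SE 0.19, adjusted p = 0.00171), 2.67-fold lower, while Cxcl12 was 10.6-fold lower. Ackr4, which clears Ccl19, Ccl21 and Ccl25, measured 5.55, 5.38 and 6.35 FPKM in glands 1 to 3, against 1.67, 0.951 and 0.223 FPKM in tumours 1 to 3 (log2 fold change -1.86, SE 0.29, adjusted p = 0.00224). No tumour reached a gland for any of the 4. Without glands 1 and 3, Ackr2 (-1.14, adjusted p = 0.0535, with 0.00217 to 0.0535 over the settings run) and Ackr4 (-1.78, adjusted p = 0.0969, with 0.00102 to 0.0969 over the settings run) lost their calls, and Ackr1 and Ackr3 kept theirs.

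Most endothelial markers were lower too, like those of fibroblasts, of fat and of T and NK cells. Of 7 endothelial markers tested, 6 were lower and 1, Flt4, did not pass (-0.60, adjusted p = 0.0948). The 8 measured summed to 163 to 189 FPKM in the glands and 20.8 to 42.8 FPKM in the tumours, with none at 0 in every library. The junction gene Pecam1 stood at 62.6, 50.2 and 64.8 FPKM in glands 1 to 3, against 14.9, 13.4 and 7.102 FPKM in tumours 1 to 3. Their part in the fall of the atypical receptors was not tested. Ackr1 shares its strand with the overlapping gene Cadm3, which fell too (-2.69, 6.06, 9.88 and 7.603 to 0.395, 0.55 and 0.131 FPKM), and Ackr4 lies opposite Acad11 (-1.09), so the levels of Ackr1 and Ackr4 are uncertain.

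**Figure D4:**
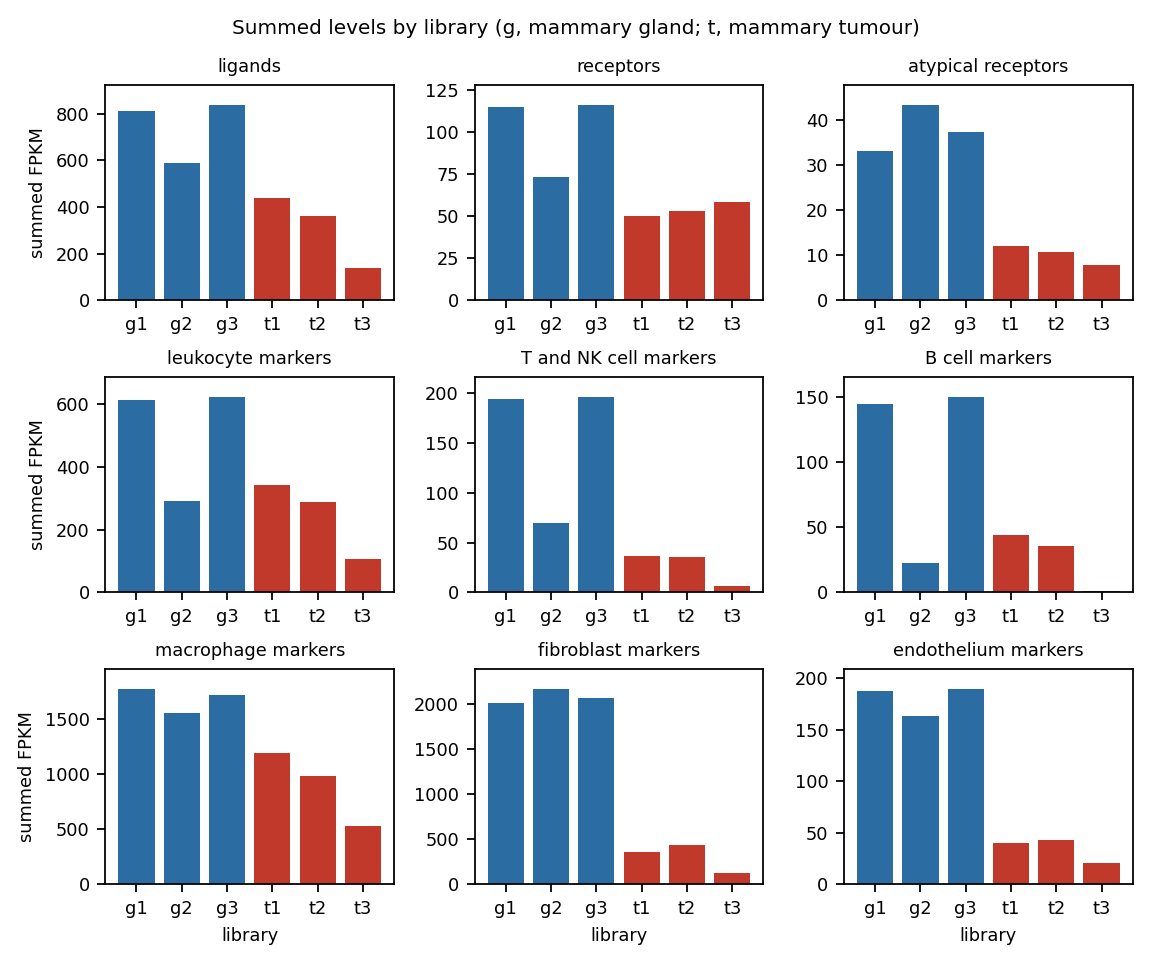
Summed FPKM in each library for the 39 chemokines, the 19 signalling receptors, the 4 atypical receptors and 6 lists of cell type markers, with glands (g) in blue and tumours (t) in red. Chemokines fall from 587 to 838 FPKM in the glands to 139.7 to 441 FPKM in the tumours. Gland 2 and tumour 3 hold the lowest leukocyte sums of their groups.

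Summed over a class, ligand sums were more spread among the tumours than receptor sums. The 39 chemokines summed to 811, 587 and 838 FPKM in glands 1 to 3 and 441, 360.3 and 139.7 FPKM in tumours 1 to 3. The 19 signalling receptors summed to 114, 73.2 and 116 FPKM and 49.8, 52.8 and 58.3 FPKM. Tumour 3 was the lowest tumour for summed ligands and the highest for summed receptors. Its place for receptors rested on Cxcr4, which alone gave 21.8, 24.03 and 38.6 FPKM in tumours 1 to 3. Taken gene by gene, tumour 3 was the lowest tumour for 7 of the 11 tested signalling receptors. The 4 atypical receptors summed to 33.2, 43.4 and 37.5 FPKM and 12.1, 10.7 and 7.798 FPKM.

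Family genes whose names lack the rule's form also went both ways. Of 7 tested, 1 was higher, 4 were lower and 2 did not pass, beside 21.9% of all tested genes higher and 23.1% lower. Mif, a chemokine-like cytokine, rose (191, 196 and 220.2 FPKM in glands 1 to 3, against 803, 711 and 924 FPKM in tumours 1 to 3, 1.99), and its receptor Cd74, the invariant chain of MHC class II, fell (-2.37). Cmklr1 (-1.93) and its ligand chemerin, Rarres2 (-3.73), fell together, and so did Pf4, the platelet CXC chemokine (-2.11). Ccrl2, an atypical binder of chemerin, did not pass (-0.01, adjusted p = 0.979).

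Of 27 tested genes that carry or end the receptor signal, 2 were higher, 9 lower and 16 did not pass, where 21.9% of all tested genes were higher and 23.1% lower (median log2 fold change -0.59, beside 0.008 for all tested genes). The receptor kinase gene Grk3, under its older symbol Adrbk2, fell from 8.27 ± 1.02 to 1.005 ± 0.161 FPKM (SD, n = 3 each, -2.21), and the arrestin gene Arrb1 by 1.38. The receptor kinase gene Grk5 (-1.25) and the G protein subunit gene Gng2 (-1.20) fell as well. Gnai2, the main inhibitory G protein of leukocytes, did not pass (207, 168 and 198 FPKM in glands 1 to 3, against 161, 179.7 and 166 FPKM in tumours 1 to 3, -0.17), nor did Adrbk1, another receptor kinase gene (-0.15). The G protein subunit genes Gnai3 (0.56) and Gnb1 (0.32) were the 2 that rose. The count of higher genes in this list lay between 0 and 3 over the settings run.

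Genes that trim, shed or display chemokines went both ways, 5 higher, 5 lower and 4 not passing of 14 tested. Of all tested genes 21.9% were higher and 23.1% lower. The dipeptidyl peptidase gene Dpp4, which clips chemokine ends, fell (-1.38), as did the gelatinase genes Mmp9 (-3.01) and Mmp2 (-2.74). Mmp12, the macrophage elastase, rose (1.40), and so did Sdc1 (0.62), a heparan sulphate carrier that holds chemokines on epithelium. Adam10, a sheddase of Cx3cl1 and Cxcl16, rose (0.40). The protease gene Furin (0.00) and the heparan sulphate polymerase gene Ext2 (-0.11) did not pass.

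Of 13 listed cytokines that induce chemokines, 5 reached the level for testing. Il33, an epithelial alarmin, rose from 6.19, 6.58 and 7.94 to 14.9, 14.98 and 27.6 FPKM (log2 fold change 1.30, SE 0.24, adjusted p = 0.00529). Tnf fell (5.18, 3.02 and 5.69 FPKM in glands 1 to 3, against 1.58, 1.57 and 1.31 FPKM in tumours 1 to 3, -1.14). The lymphotoxin gene Ltb, at 45.98, 14.2 and 47.9 FPKM in glands 1 to 3, against 10.2, 12.5 and 1.92 FPKM in tumours 1 to 3, fell as well (-2.10, adjusted p = 0.0428). Il1b (-0.01) and Lta (-0.86) did not pass. Ifng was at 1.77, 0 and 1.56 FPKM in glands 1 to 3, against 0.392, 0 and 0.131 FPKM in tumours 1 to 3, too low to test, and Il17a and Csf2 were listed at 0 throughout.

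The transcription factors and regulators of these pathways were mixed. Of 16 tested, 5 were higher, 6 lower and 5 did not pass, beside 21.9% of all tested genes higher and 23.1% lower. NF-kappaB genes went several ways. Nfkbia, which codes for the inhibitor of NF-kappaB, fell, at 182, 172 and 195 FPKM in glands 1 to 3, against 36.3, 38.1 and 32.8 FPKM in tumours 1 to 3 (log2 fold change -2.32, SE 0.10, adjusted p = 2.33e-05). The feedback gene Tnfaip3 (-1.78) and the subunit genes Relb (-1.74), Nfkb2 (-1.10) and Rel (-1.03) fell, while Nfkbiz, another gene of the inhibitor family, rose (0.55). The subunit genes Nfkb1 (-0.38, adjusted p = 0.0582) and Rela (0.19, adjusted p = 0.329) and the kinase gene Ikbke (-0.59, adjusted p = 0.0542) did not pass. The interferon factor Irf7 measured 18.9, 12.8 and 20.8 FPKM in glands 1 to 3, against 296, 289 and 206 FPKM in tumours 1 to 3 and rose (log2 fold change 3.85, SE 0.22, adjusted p = 4.89e-05). Irf1, which acts downstream of interferon gamma, fell (-1.11), and Stat3 did not pass (0.43). Cebpb, a factor of acute phase and epithelial genes, rose (1.29).

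Neighbouring members on the genome often differed in their calls. Of all tested genes 21.9% were higher and 23.1% lower, and whether neighbouring members differ more than other genes was not tested. A member that did not pass or was not tested may still have shifted with its neighbours. On GENCODE M21 for GRCm38, 61 members were placed and 39 lay within 200 kb of another. The CXC group on chromosome 5 (90759360 to 90905938) holds Cxcl1, which rose, and Cxcl15, which fell. Cxcl5, Cxcl3 and Cxcl2 were listed at 0 in every gland and above 0 in some tumours, and were too low to test. Farther along that chromosome (92321347 to 92365485) Cxcl9 fell beside Cxcl10 and Cxcl11, which did not pass. The gene Art3 overlaps Cxcl10 and Cxcl11 on the other strand and fell (63.1, 67.3 and 72.8 FPKM in glands 1 to 3, against 4.896, 2.05 and 1.19 FPKM in tumours 1 to 3, -4.33), and without strand its reads and theirs cannot be told apart. On chromosome 11 the groups around Ccl2 (82035571 to 82305690) and Ccl5 (83525778 to 83664683) each held 1 gene that fell, Ccl11 and Ccl5, and 4 that did not pass. In the Ccl5 group those 4 also had negative log2 fold changes, from -1.22 to -0.32, and in the Ccl2 group they lay on both sides of 0, from -1.41 to 0.75. In the receptor group on chromosome 9 Cxcr6 and Ccr2 fell, Ccr1 did not pass, and Ccr9, Xcr1, Ccr1l1 and Ccr3 were under the level for testing. Without a filter Xcr1 and Ccr3 were lower (limma adjusted p = 0.00148 and 0.0256), and Ccr9 and Ccr1l1 did not pass (0.0929 and 0.226). Cxcr6 lies inside a gene on the other strand, Fyco1, which fell (-0.93). Overlaps with measured genes were also annotated for Ccl25, Ccr9, Ccr10, Cx3cr1, Cxcl16 and Cxcr5, so their levels are uncertain in the same way. The measured gene that overlaps Ccl6 stood at no more than 0.421 FPKM, and the 1 that overlaps Xcl1 was listed at 0 in every library.

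**Figure D5:**
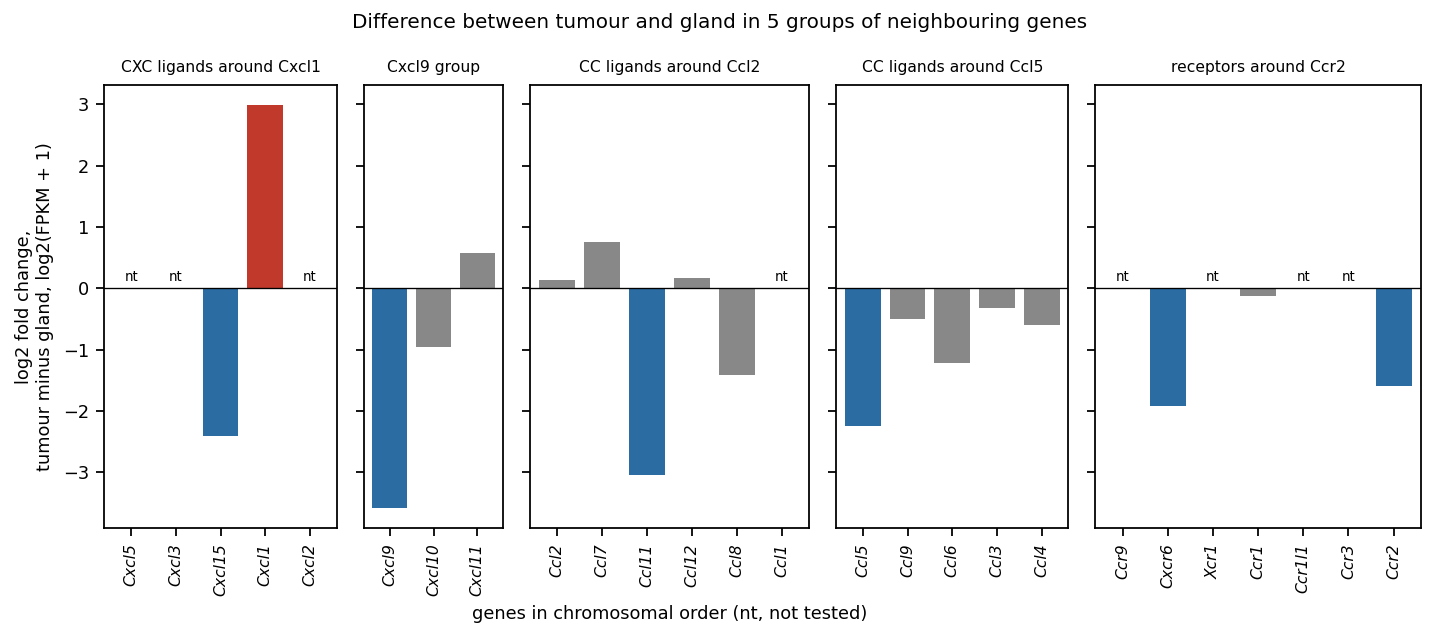
Log2 fold change, tumour minus gland on log2(FPKM + 1), of members in chromosomal order within 5 groups of neighbours on chromosomes 5, 11 and 9. Red bars passed as higher, blue bars passed as lower, grey bars did not pass, and nt marks members under the level for testing. Cxcl1 at 2.98 stands beside Cxcl15 at -2.40.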

How the data were processed

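Total RNA of 3 mammary glands and 3 mammary tumours was sequenced. Per the submitters' processing notes, HISAT2, StringTie and the build mm10 were used, and no source used here gives their versions, their roles or the annotation. FPKM is the unit read for the deposited values, which the authors would then have scaled to transcript length and to mapped fragments, since the header names no unit and the values are not whole and sum to different totals in each library. Log2(FPKM + 1) was tested, tumour minus gland, over every gene that averaged 1 FPKM or more with limma 3.58.1 in R 4.3.3 with a mean-variance trend, 2-sided, with Benjamini-Hochberg adjustment over all 13364 genes, after a check on simulated data. Figures were drawn with matplotlib 3.10.9. The replicate numbers did not pair the libraries, so no block was used. Tested members were named, apart from results that are not reported here, and of the other lists up to 4 members past the threshold and 2 that did not pass. Adam10, Gnai3, Gnb1, Ifng, Ikbke, Irf1, Nfkb1, Nfkb2, Nfkbiz, Pf4, Rel, Rela, Relb, Sdc1, overlapping genes and marker genes other than Ptprc were named after their values were seen. The members, lists and alternatives were chosen with earlier results of these data known. Alternatives changed the pseudocount, filter, scaling, block and libraries. LINK-A was not analysed here.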

Additional observations from a re-analysis of the deposited data

How the results depend on the processing

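Over 15 alternatives and the members reported, 596 of 654 values kept their direction and their side of the threshold, 29 lost a call, 13 gained one and 16 turned direction, and of the 21 called members 9 kept their call in every alternative that tested them. The count of members higher was 3 to 7 and of members lower 15 to 22 when 1 library was left out, beside 3 and 18, and those of all genes 2049 to 3130 higher and 2258 to 3241 lower, beside 2933 and 3090. Without glands 1 and 3 there were 6 members lower, 790 genes higher and 1262 lower, with 1 gland left. A mean of at least 5 FPKM left 24 members tested, of which 9 were lower, and 1864 genes lower. The split of all calls was 3664 higher to 2622 lower under quantile normalization and 2279 to 3178 with a common sum.

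All turns of direction were in members that did not pass. Leaving out 1 library at a time gave log2 fold changes that spanned -0.187 to 0.601 for Ccl12, -1.447 to 0.702 for Ccl19, -0.083 to 0.579 for Ccl2, -0.049 to 0.27 for Ccl25 and -0.867 to 0.132 for Ccl9. Without glands 1 and 3 the members that turned were Ccl19 (0.70), Ccl25 (-0.15), Cxcr2 (0.25) and Cxcr4 (0.055). Quantile normalization turned Ccl3 (0.34), Ccl4 (0.037), Ccr1 (0.16) and Cxcr2 (0.14), and averaging tumours 1 and 2 turned Ccl2 (-0.082). The cause was not tested. With the replicate number as a block, 3 members were higher and 17 lower, Ccr6 being the call lost (adjusted p = 0.0521, range 0.00129 to 0.263 over its alternatives), and 2147 genes were higher and 2581 lower. Same-numbered libraries had r of -0.054, -0.118 and -0.124 between their deviations from the group means, so the numbers were not taken as pairs. FPKM carry no counts, and counting error did not enter the tests.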

Other observations

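Values that belong to no comparison: members above 0 FPKM numbered 53, 53 and 56 of 62 in glands 1 to 3 and 48, 52 and 42 in tumours 1 to 3. Tumour 3 listed 20 members at 0, more than any other library, although the number of all genes above 0 was 15246 there and 15000 in tumour 1, which listed 14 members at 0. The relative depth estimated from low values was 1.51 times that of tumour 1 for tumour 3. Rps27, a ribosomal protein gene, stood at 8.05 FPKM in gland 1 and at 1557 FPKM or more in the other 5 libraries.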
